A study of Mus musculus with 8 samples.

Results

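The DNA replication machinery is described here as 52 genes of 47937 gene IDs in the count tables. They were listed by name for their textbook roles in replication: 6 subunits of the origin recognition complex, 3 genes that load the helicase or block its loading, the 6 subunits of the MCM2-7 helicase, 8 genes that activate it, 4 of polymerase alpha and primase, 5 of polymerases delta and epsilon, 6 of the sliding clamp and its loader, 3 of RPA, 3 that process Okazaki fragments, 4 that protect the fork and 4 that assemble or maintain chromatin behind it. The cells were mouse pro-B cells transformed with A-MuLV (Abelson murine leukaemia virus, which carries an activated tyrosine kinase), and all of them had the genotype EBF1-dTAG_N. In these cells an introduced, tagged form stands in for the endogenous EBF1, the transcription factor that defines the B lineage. The tag binds dTAG-13, a compound that brings the tagged protein to a ubiquitin ligase for degradation. Treated cells (dTAG-13, 4 libraries) received 0.5 µM dTAG-13 for 6 h and control cells (DMSO, 4 libraries) received DMSO for 6 h, although the titles of the control libraries read 0h. No untagged cells given dTAG-13 are among the libraries used here, so an action of the compound on other targets and loss of EBF1 cannot be told apart, and whether the cells were 1 clone is not given in the labels. Replicates carry numbers only, with no word on separate cultures, so p-values measure the spread between these libraries, which may be technical.

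Before S phase, the origin recognition complex, CDC6 and CDT1 place MCM2-7 helicases on DNA, and geminin blocks further loading once replication has begun. The kinase CDC7 with its partner DBF4, together with CDC45, the GINS complex and MCM10, turns the loaded helicase into a moving fork. Polymerase alpha with primase then starts each strand, polymerases epsilon and delta extend the leading and lagging strands on the clamp PCNA, and RPA coats the single-stranded DNA. Transcription of many of these genes peaks around the G1 to S transition under E2F factors, and proliferating B-cell progenitors transcribe them at high levels.

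Values are CPM, the reads of a gene scaled to a fixed total with edgeR's TMM factors. Exonic CPM were scaled to the exonic reads of a library and intronic CPM to its intronic reads. Each is thus a share of its own read class, so exonic and intronic CPM of a gene cannot be compared with each other. Exonic reads came to 28982316 to 38999496 per library, and of all reads over whole genes 20.4% to 27.3% were intronic, that is whole-gene minus exonic. All 52 genes passed the filter on low counts in both read classes. In the annotation used for lengths, 21 of the 52 overlap a gene on the other strand and 15 one on the same strand, and 25 overlap none, among them Uhrf1, Rpa2, Cdc6, Mcm6 and Cdc7. The strand setting of the counting was not given in the sources used here, so reads of overlapping genes cannot be told apart. Of 11 pro-B markers all were detected, with Dntt lowest at 0.898 to 1.73 CPM. By edgeR 9 of the 11 were lower after dTAG-13 and 1, Cd93, higher, against 14.0% and 14.3% of all genes tested. The summed level of the 11 was 2113 to 2197 CPM in the dTAG-13 libraries and 2796 to 2862 CPM in the DMSO libraries. The 5 T-cell markers were at 0 in all 8 libraries, and the summed myeloid, erythroid and stromal markers reached at most 1.12 exonic CPM in any library, with Elane, Hba-a1 and Hbb-bs at 0. Within these low levels the myeloid Lyz2 was 0.400 to 0.897 CPM in the dTAG-13 libraries and 0.162 to 0.365 CPM in the DMSO libraries, and the erythroid Klf1 0.0272 to 0.182 CPM in the dTAG-13 libraries and 0.553 to 0.933 CPM in the DMSO libraries. The part of these markers in the results was not tested. Ebf1 had 816, 757, 723 and 773 exonic CPM in the dTAG-13 libraries, against 639, 608, 615 and 628 exonic CPM in the DMSO libraries. Its exonic level was higher in every dTAG-13 library, by 1.23-fold in the fit (log2 fold change 0.30 ± 0.04 (SE), edgeR adjusted p = 2.1e-07), which says nothing about the protein that dTAG-13 targets. Transcripts of the introduced form and of the endogenous gene cannot be told apart in these counts. With whole-gene counts Ebf1 was not called (log2 fold change 0.13, adjusted p = 0.363), nor was it in intronic reads (0.09, adjusted p = 0.665). The library of dTAG-13 replicate 1 stood apart from the other 3 treated libraries for the replication genes. It had the highest level of the 4 dTAG-13 libraries in 39 of the 52 genes, against 30.0% of all 12889 genes tested, and the counts of called genes are therefore also given without it.

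Most replication genes were lower after 6 h of dTAG-13, each by a small amount. In exonic reads 39 of the 52 were lower by edgeR's quasi-likelihood test at an adjusted p below 0.05, 1 was higher and 12 were not called, where 28.3% of all 12889 genes tested were called, 14.0% lower and 14.3% higher. The called falls ranged from 1.09-fold to 1.50-fold with a median of 1.17-fold. The median log2 fold change (dTAG-13 over DMSO) of the 52 was -0.22, beside -0.003 over all genes tested, and 47 of the 52 lay below 0. All 4 dTAG-13 libraries lay below all 4 DMSO libraries in 34 of the 52 and above them in 2, and the groups overlapped in 16, while over all genes tested 13.5% had fully lower and 14.2% fully higher dTAG-13 libraries. Summed over the 52, exonic levels were 5073 ± 295 CPM in the dTAG-13 libraries and 5973 ± 150 CPM in the DMSO libraries (SD, n = 4 each), a difference of -15.1%. The sum in dTAG-13 replicate 1 was 5505 CPM, against 4845 to 4998 CPM in the other 3 treated libraries and 5770 to 6121 CPM in the DMSO libraries. Without dTAG-13 replicate 1, 39 genes were called lower (14.1% of all 13125 genes then tested) and the median was -0.25, and of the 40 genes called in either direction 38 were shared with the fit on all libraries, with Mcm2 and Rfc3 gained and Prim2 and Dbf4 lost. Tested against a 1.2-fold change in place of no change, edgeR called Pold1, Gins2, Rpa2, Uhrf1 and Cdc6 lower, 5 of the 52, and none higher, where 3.77% of all genes tested were called lower and 4.66% higher. In bulk RNA, fewer cells in S phase and less RNA per cell cannot be told apart.

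**Figure D1:**
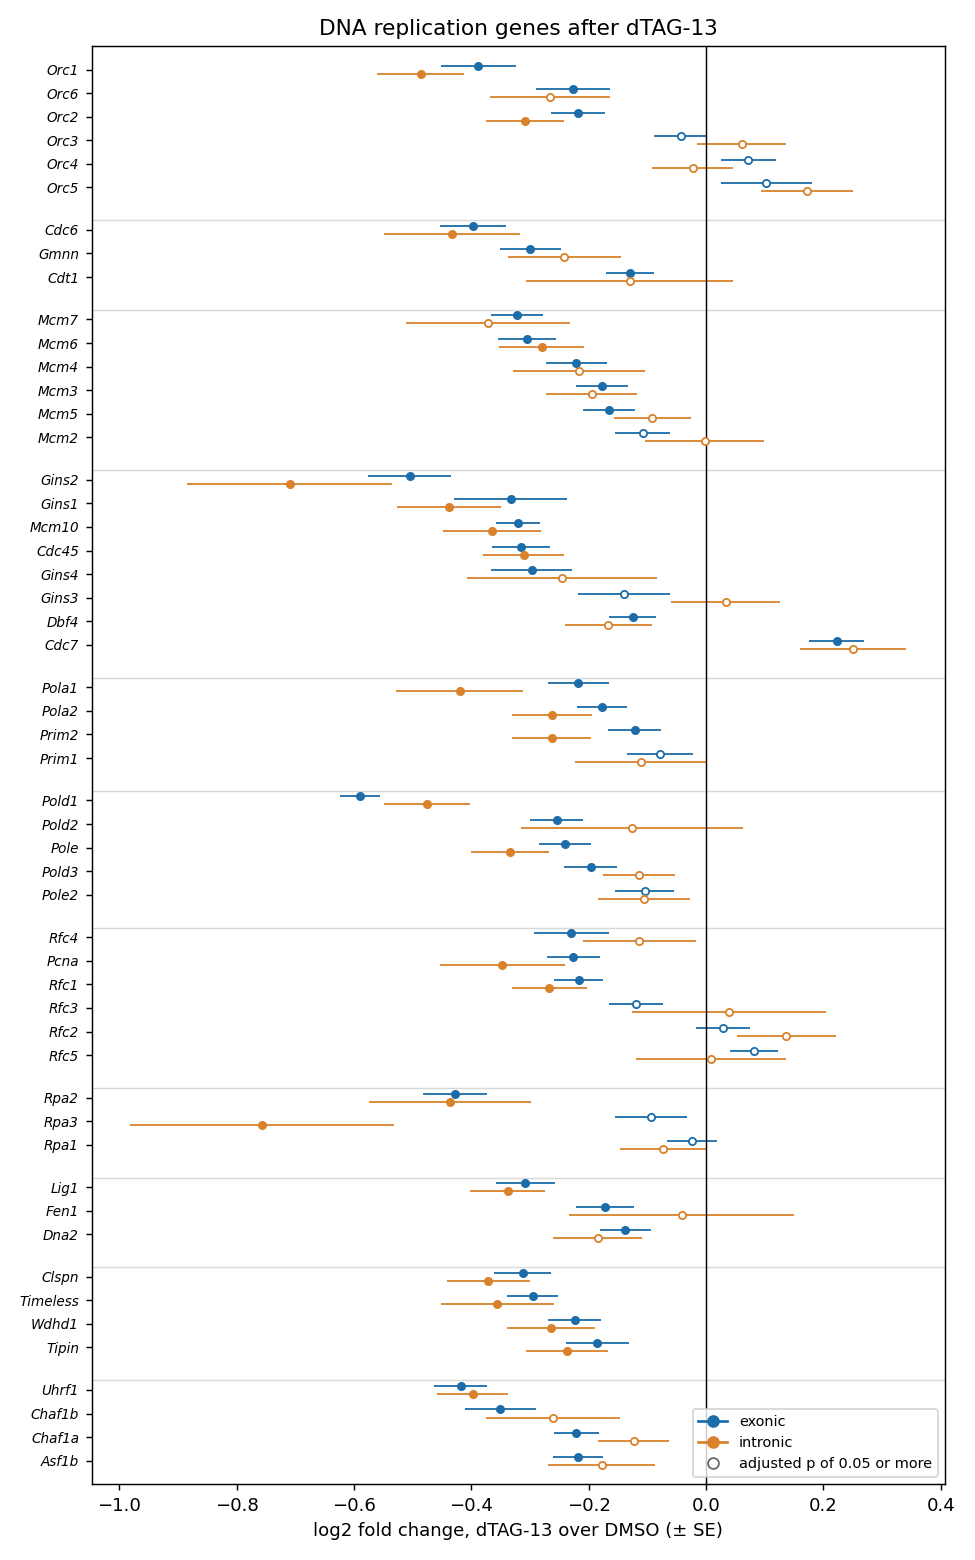
Log2 fold change (dTAG-13 over DMSO, horizontal axis) of each of the 52 replication genes, grouped by role, from exonic and intronic reads, with bars of ± 1 SE and open points where the adjusted p was 0.05 or more. Exonic changes run from -0.59 for Pold1 to 0.22 for Cdc7, and 47 exonic and 45 intronic points lie left of 0.

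E2F sites near the transcription start are a known feature of replication gene promoters, so printed here are the promoters of the genes called lower against a 1.2-fold change, apart from Gins2, which had no entry, and of Cdc7, the 1 gene with a called rise. RefSeq windows on GRCm38.p6, from 250 bases before to 50 bases after the start, were found for 43 of the 52 genes, and Gmnn, Mcm4, Gins4, Tipin, Rfc2, Prim2, Gins1, Gins2 and Pole had no entry. Capitals mark the E2F words searched, which were TTTCCCGC, TTTGGCGC, TTTCGCGC and TTTGCCGC on either strand, each 5′ to 3′ on the gene's strand.
Pold1 (chr7:44548766-44549065, minus strand, 1 word): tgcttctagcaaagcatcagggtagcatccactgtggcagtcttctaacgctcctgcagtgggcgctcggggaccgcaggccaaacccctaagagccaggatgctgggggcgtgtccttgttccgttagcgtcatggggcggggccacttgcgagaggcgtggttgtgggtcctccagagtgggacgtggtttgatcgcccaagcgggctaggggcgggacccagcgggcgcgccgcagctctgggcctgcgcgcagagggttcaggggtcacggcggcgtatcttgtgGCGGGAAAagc
Rpa2 (chr4:132768110-132768409, plus strand, no word): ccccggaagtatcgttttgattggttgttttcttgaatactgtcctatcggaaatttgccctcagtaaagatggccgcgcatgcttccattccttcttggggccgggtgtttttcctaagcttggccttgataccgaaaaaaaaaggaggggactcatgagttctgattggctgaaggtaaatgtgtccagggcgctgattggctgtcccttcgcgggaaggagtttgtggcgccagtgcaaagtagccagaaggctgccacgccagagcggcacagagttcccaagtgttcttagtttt
Uhrf1, upstream start (chr17:56303087-56303386, plus strand, no word): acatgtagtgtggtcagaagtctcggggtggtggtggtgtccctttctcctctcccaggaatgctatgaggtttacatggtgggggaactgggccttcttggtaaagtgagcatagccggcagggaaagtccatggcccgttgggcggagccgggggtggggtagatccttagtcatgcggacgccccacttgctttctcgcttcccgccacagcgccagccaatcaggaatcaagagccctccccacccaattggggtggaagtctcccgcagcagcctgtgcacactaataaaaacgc
Uhrf1, downstream start (chr17:56304063-56304362, plus strand, 1 word): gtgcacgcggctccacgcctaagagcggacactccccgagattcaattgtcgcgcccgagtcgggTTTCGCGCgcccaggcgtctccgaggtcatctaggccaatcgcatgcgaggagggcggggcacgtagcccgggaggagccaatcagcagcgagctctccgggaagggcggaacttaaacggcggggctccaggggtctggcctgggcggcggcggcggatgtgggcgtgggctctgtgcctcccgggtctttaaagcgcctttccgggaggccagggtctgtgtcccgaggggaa
Cdc6 (chr11:98907901-98908200, plus strand, 1 word): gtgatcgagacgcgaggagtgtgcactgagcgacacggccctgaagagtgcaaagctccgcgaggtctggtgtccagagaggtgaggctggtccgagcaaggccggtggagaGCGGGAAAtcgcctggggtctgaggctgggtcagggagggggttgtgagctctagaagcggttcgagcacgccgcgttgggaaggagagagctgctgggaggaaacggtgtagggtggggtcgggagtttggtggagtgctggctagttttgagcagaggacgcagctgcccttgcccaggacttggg
Cdc7 (chr5:106964072-106964371, plus strand, no word): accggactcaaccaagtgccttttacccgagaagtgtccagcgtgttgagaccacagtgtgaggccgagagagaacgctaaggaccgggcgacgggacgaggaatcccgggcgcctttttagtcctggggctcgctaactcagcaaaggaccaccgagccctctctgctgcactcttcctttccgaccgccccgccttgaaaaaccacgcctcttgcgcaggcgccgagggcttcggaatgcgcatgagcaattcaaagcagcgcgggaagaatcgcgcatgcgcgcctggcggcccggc
Counted from the RefSeq start as +1, the word of Pold1 began at +40, that of the downstream Uhrf1 start at -185 and that of Cdc6 at -138. The GENCODE annotation, which gave the gene positions in the text, starts these 3 genes further upstream than those RefSeq starts, and all 3 words lie inside its gene spans. Cdc7 has a further RefSeq start, whose window held no word either. Of the printed genes called lower, Rpa2 held none of the words.

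At least 1 of the E2F words was present in the windows of 17 of the 43 genes (39.5%), against 704 of 27025 genes (2.6%) over the whole RefSeq table. The 17 were Mcm3, Mcm5, Mcm6, Mcm7, Orc1, Orc3, Cdc6, Cdt1, Gins3, Clspn, Rfc3, Lig1, Pold1, Pold3, Pole2, Pola1 and Uhrf1. Their median exonic log2 fold change was -0.22, and that of the 26 genes without a word was also -0.22. The CCAAT box (CCAAT or ATTGG) was in 58.1% of the replication gene windows and 41.1% of all, the E-box CACGTG in 16.3% and 8.09%, and the EBF1 core CCCNNGGG in 16.3% and 15.4%. Median exonic log2 fold changes with and without the CCAAT box were -0.219 (25 genes) and -0.175 (18 genes). For the E-box they were -0.177 (7 genes) and -0.219 (36 genes), and for the EBF1 core -0.295 (7 genes) and -0.187 (36 genes). Whether any of these medians differ was not tested. These are matches of letters in 1 window per start and say nothing of binding. The whole RefSeq table also holds genes not tested here, and the shares were not matched for expression, base content or number of starts per gene.

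At the origins, 3 of the 6 subunits of the recognition complex were lower after dTAG-13 and the others were not called. Orc1, an ATPase subunit of the complex (chromosome 4, 108579423 to 108614833, plus strand), had 20.4, 22.3, 20.3 and 21.1 exonic CPM in the dTAG-13 libraries, against 26.5, 30.4, 26.3 and 27.1 exonic CPM in the DMSO libraries. All treated libraries lay below all control libraries, with a 1.31-fold fall (log2 fold change -0.39 ± 0.06 (SE), edgeR adjusted p = 2.3e-05). Orc2, a core subunit, had 57.0, 55.2, 61.2 and 57.8 exonic CPM in the dTAG-13 libraries, against 67.9, 71.7, 66.8 and 63.0 exonic CPM in the DMSO libraries. The groups did not overlap here either, and Orc2 fell 1.16-fold (log2 fold change -0.22 ± 0.05 (SE), edgeR adjusted p = 4.9e-04). Orc6, the smallest subunit, fell 1.17-fold (edgeR adjusted p = 0.00665). Orc3, Orc4 and Orc5 had log2 fold changes of -0.04, 0.07 and 0.10, with overlapping groups and edgeR adjusted p-values of 0.545, 0.285 and 0.367.

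The loading factors and their inhibitor fell together, all 3 of 3. Cdc6, the ATPase that recruits MCM2-7 to the recognition complex (chromosome 11, 98907801 to 98923940, plus strand), had 45.0, 39.4, 39.1 and 36.3 exonic CPM in the dTAG-13 libraries, against 56.2, 49.8, 51.3 and 53.2 exonic CPM in the DMSO libraries. Its highest treated library, replicate 1, still lay below its lowest control library, and the fall was 1.32-fold (log2 fold change -0.40 ± 0.06 (SE), edgeR adjusted p = 2.5e-06). Gmnn, which encodes geminin, the protein that binds CDT1 to stop relicensing, had 35.1, 31.7, 32.7 and 30.8 exonic CPM in the dTAG-13 libraries, against 38.4, 41.5, 41.1 and 39.4 exonic CPM in the DMSO libraries. Again the groups were separate (1.23-fold lower, log2 fold change -0.30 ± 0.05 (SE), edgeR adjusted p = 5.5e-05). Cdt1, the partner of MCM2-7 in loading, fell 1.09-fold (edgeR adjusted p = 0.0185), and this call was lost without dTAG-13 replicate 4 (adjusted p = 0.0841), DMSO replicate 1 (0.0524) or DMSO replicate 2 (0.0544).

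Of the 6 helicase subunits, 5 fell and Mcm2 was not called (log2 fold change -0.11, edgeR adjusted p = 0.0881). Mcm2 had 299, 254, 263 and 251 exonic CPM in the dTAG-13 libraries, against 304, 289, 272 and 284 exonic CPM in the DMSO libraries, and it was called lower without dTAG-13 replicate 1 (log2 fold change -0.17, adjusted p = 0.00154) or DMSO replicate 3 (-0.14, adjusted p = 0.0349), with no filter on low counts (0.0339) and with the replicate number as a block (0.0249). Mcm7 had 287, 251, 260.1 and 239 exonic CPM in the dTAG-13 libraries, against 330.2, 329, 308 and 329 exonic CPM in the DMSO libraries. No treated library reached the lowest control library, DMSO replicate 3, and Mcm7 fell 1.25-fold (log2 fold change -0.32 ± 0.04 (SE), edgeR adjusted p = 2.0e-06). Its introns host the microRNAs Mir25, Mir93 and Mir106b, and it overlaps Ap4m1 and Cops6 on the other strand, so part of its reads may be theirs. Mcm6 (chromosome 1, 128331590 to 128359664, minus strand) had 343, 285, 289 and 278 exonic CPM in the dTAG-13 libraries, against 383, 362, 355 and 376 exonic CPM in the DMSO libraries. Here dTAG-13 replicate 1 stood well above the other treated libraries but below every control library (1.24-fold lower, log2 fold change -0.31 ± 0.05 (SE), edgeR adjusted p = 1.8e-05). Mcm4, Mcm3 and Mcm5 fell 1.17-fold, 1.13-fold and 1.12-fold (edgeR adjusted p = 0.00153, 0.00282 and 0.0054) with groups that overlapped, and dTAG-13 replicate 1 lay above the lowest control library in each. With whole-gene in place of exonic counts the calls on Mcm3 and Mcm5 were lost (adjusted p = 0.0734 for each). The 6 proteins form a ring with 1 copy of each, and their fitted changes ran from -0.32 to -0.11 on the log2 scale.

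Genes that activate the helicase held both the second largest fall among the 52 and the single rise. Gins2, a subunit of the 4-subunit GINS complex that bridges helicase and polymerase (chromosome 8, 120578633 to 120589304, minus strand), had 20.1, 17.7, 18.3 and 16.5 exonic CPM in the dTAG-13 libraries, against 23.4, 27.8, 25.9 and 25.9 exonic CPM in the DMSO libraries. The groups did not overlap, and Gins2 fell 1.42-fold (log2 fold change -0.51 ± 0.07 (SE), edgeR adjusted p = 2.2e-06). Gins2 overlaps Gse1 and Gm20388 on the other strand, whose reads may add to it. Mcm10, which helps to start the fork, had 84.8, 79.6, 83.2 and 84.5 exonic CPM in the dTAG-13 libraries, against 106, 103, 102 and 103 exonic CPM in the DMSO libraries. Its treated libraries lay close together and below all controls (1.25-fold lower, log2 fold change -0.32 ± 0.04 (SE), edgeR adjusted p = 1.4e-07). Cdc45, the helicase cofactor, Gins1 and Gins4 fell 1.24-fold, 1.26-fold and 1.23-fold (edgeR adjusted p = 1.2e-05, 0.0092 and 0.00139), and the call on Gins1 was lost without dTAG-13 replicate 2 (adjusted p = 0.0533). Gins3 was not called (log2 fold change -0.14, edgeR adjusted p = 0.209).

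Cdc7, the kinase that phosphorylates MCM2-7 at licensed origins (chromosome 5, 106964322 to 106984432, plus strand), had 45.6, 51.0, 48.1 and 49.4 exonic CPM in the dTAG-13 libraries, against 40.1, 42.0, 42.4 and 41.8 exonic CPM in the DMSO libraries. Every treated library lay above every control library, and Cdc7 rose 1.17-fold (log2 fold change 0.22 ± 0.05 (SE), edgeR adjusted p = 4.8e-04). Dbf4, which encodes the subunit that CDC7 needs for activity, was called lower by 1.09-fold (edgeR adjusted p = 0.0206). The call on Dbf4 was lost without dTAG-13 replicate 1 (adjusted p = 0.0711), DMSO replicate 2 (0.0728) or DMSO replicate 4 (0.0905), while that on Cdc7 held without each of the 8 libraries.

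Among the polymerases, Pold1 had the largest fall of the 52. Pold1, the catalytic subunit of polymerase delta with its proofreading exonuclease (chromosome 7, 44532746 to 44548849, minus strand), had 162, 161, 159 and 157 exonic CPM in the dTAG-13 libraries, against 239, 241, 239 and 241 exonic CPM in the DMSO libraries. Within each group the libraries spanned only a few CPM, and the groups were far apart (1.50-fold lower, log2 fold change -0.59 ± 0.03 (SE), edgeR adjusted p = 1.9e-13). In the authors' deposited table the exonic log2 fold change of Pold1 was -0.59 and the intronic -0.45. Pold1 overlaps Mir7053 and Gm44833. Pold2, an accessory subunit, had 68.6, 67.1, 64.4 and 59.4 exonic CPM in the dTAG-13 libraries, against 77.2, 81.9, 75.5 and 75.2 exonic CPM in the DMSO libraries, and fell 1.19-fold (log2 fold change -0.25 ± 0.05 (SE), edgeR adjusted p = 8.3e-05). Pold3 fell 1.15-fold and Pole, the catalytic subunit of polymerase epsilon, 1.18-fold (edgeR adjusted p = 0.00145 and 1.1e-04). Pole2 had fully separate groups but was not called (log2 fold change -0.10, edgeR adjusted p = 0.131).

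Of polymerase alpha and primase, 3 of 4 genes fell, by 1.09-fold to 1.16-fold. Pola1, the catalytic subunit of polymerase alpha, had 89.4, 76.6, 79.5 and 81.4 exonic CPM in the dTAG-13 libraries, against 99.2, 87.5, 89.6 and 104 exonic CPM in the DMSO libraries. The groups overlapped, and the fitted fall was 1.16-fold (log2 fold change -0.22 ± 0.05 (SE), edgeR adjusted p = 0.00183). Pola2, its regulatory subunit, had 81.4, 72.0, 74.6 and 76.3 exonic CPM in the dTAG-13 libraries, against 85.7, 85.3, 83.0 and 90.1 exonic CPM in the DMSO libraries, with separate groups and a 1.13-fold fall (log2 fold change -0.18 ± 0.04 (SE), edgeR adjusted p = 0.00212). Primase makes the RNA primers. Its large subunit Prim2 was 1.09-fold lower with an edgeR adjusted p of 0.0453, and its catalytic subunit Prim1 was not called (0.337). The Prim2 call was lost whichever library was left out: leaving out any 1 of the 8 libraries gave adjusted p-values from 0.0508 (without dTAG-13 replicate 1) to 0.145 (without dTAG-13 replicate 4).

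Of the clamp and its loader, 3 of 6 genes fell. Pcna, the ring that tethers the polymerases, had 319, 271, 279 and 264 exonic CPM in the dTAG-13 libraries, against 341, 333, 320.0 and 332 exonic CPM in the DMSO libraries. All treated libraries were lower, with dTAG-13 replicate 1 nearest to the controls (1.17-fold lower, log2 fold change -0.23 ± 0.05 (SE), edgeR adjusted p = 3.0e-04). Rfc1, the large subunit of the clamp loader, had 95.3, 85.5, 89.5 and 84.7 exonic CPM in the dTAG-13 libraries, against 104, 107, 99.4 and 102 exonic CPM in the DMSO libraries, and fell 1.16-fold (log2 fold change -0.22 ± 0.04 (SE), edgeR adjusted p = 2.0e-04). Rfc4 fell 1.17-fold (edgeR adjusted p = 0.00694) and overlaps Eif4a2 on the other strand. Rfc2, Rfc3 and Rfc5 were not called (Rfc3 was without dTAG-13 replicate 1, adjusted p = 0.045, or DMSO replicate 3, 0.0387), with log2 fold changes of 0.03, -0.12 and 0.08, although the groups of Rfc3 (lower) and Rfc5 (higher) did not overlap.

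RPA, the heterotrimer that binds single-stranded DNA, had unlike values for its 3 subunits. Rpa2 had 44.5, 42.3, 39.8 and 39.3 exonic CPM in the dTAG-13 libraries, against 62.1, 53.3, 55.9 and 52.0 exonic CPM in the DMSO libraries. The treated libraries were all lower, and Rpa2 fell 1.34-fold, the third largest fall of the 52 (log2 fold change -0.43 ± 0.05 (SE), edgeR adjusted p = 4.5e-07). Rpa3, the smallest subunit, had 27.1, 24.6, 26.4 and 22.9 exonic CPM in the dTAG-13 libraries, against 27.8, 27.5, 25.6 and 26.9 exonic CPM in the DMSO libraries. Those groups overlapped, and Rpa3 (log2 fold change -0.09, edgeR adjusted p = 0.294) and Rpa1 (-0.02, adjusted p = 0.748) were not called. Whether the 3 subunits differ from each other in their change was not tested.

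All 3 genes that mature Okazaki fragments were lower. Lig1, the ligase that seals the nicks, had 151, 129, 136 and 128 exonic CPM in the dTAG-13 libraries, against 175, 159.8, 157 and 181 exonic CPM in the DMSO libraries. The groups were separate, and Lig1 fell 1.24-fold (log2 fold change -0.31 ± 0.05 (SE), edgeR adjusted p = 2.1e-05). Fen1, the nuclease that removes flaps, had 107, 90.0, 96.5 and 85.6 exonic CPM in the dTAG-13 libraries, against 111, 106, 105 and 106 exonic CPM in the DMSO libraries. Its groups overlapped through dTAG-13 replicate 1, the fall was 1.13-fold (log2 fold change -0.17 ± 0.05 (SE), edgeR adjusted p = 0.00951), and the call was lost without dTAG-13 replicate 2 (adjusted p = 0.0572) or replicate 4 (0.0513). Dna2, a helicase and nuclease for long flaps, fell 1.10-fold (edgeR adjusted p = 0.0183), a call that was lost without dTAG-13 replicate 3 (adjusted p = 0.0862), DMSO replicate 1 (0.0853) or DMSO replicate 2 (0.0615).

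The fork protection and chromatin groups each fell in 4 of 4 genes. Timeless, which with Tipin links helicase and polymerases, had 58.3, 52.1, 52.7 and 53.8 exonic CPM in the dTAG-13 libraries, against 67.8, 65.3, 67.4 and 65.6 exonic CPM in the DMSO libraries. Every treated library was lower (1.23-fold, log2 fold change -0.30 ± 0.04 (SE), edgeR adjusted p = 5.4e-06). Clspn, which encodes claspin, the mediator of CHK1 activation at stalled forks, had 83.5, 70.1, 71.9 and 70.5 exonic CPM in the dTAG-13 libraries, against 96.4, 90.3, 90.2 and 90.5 exonic CPM in the DMSO libraries. It fell 1.24-fold, with dTAG-13 replicate 1 again the highest treated library (log2 fold change -0.31 ± 0.05 (SE), edgeR adjusted p = 1.2e-05). Wdhd1, also known as AND-1 or CTF4, fell 1.17-fold and Tipin 1.14-fold (edgeR adjusted p = 3.5e-04 and 0.0104), and the Tipin call was lost without DMSO replicate 1 (adjusted p = 0.0691).

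Behind the fork, Uhrf1 recruits the maintenance DNA methyltransferase to hemimethylated DNA (chromosome 17, 56303321 to 56323486, plus strand). Uhrf1 had 536, 448, 464 and 447 exonic CPM in the dTAG-13 libraries, against 642, 637, 605 and 647 exonic CPM in the DMSO libraries. The treated libraries were all lower, replicate 1 the least so, and the fall was 1.34-fold (log2 fold change -0.42 ± 0.05 (SE), edgeR adjusted p = 3.1e-08). Chaf1b, a subunit of the histone chaperone CAF-1, had 31.1, 27.6, 27.1 and 27.3 exonic CPM in the dTAG-13 libraries, against 35.6, 40.0, 34.6 and 34.2 exonic CPM in the DMSO libraries. It fell 1.27-fold (log2 fold change -0.35 ± 0.06 (SE), edgeR adjusted p = 4.5e-05), the large CAF-1 subunit Chaf1a 1.17-fold and the histone chaperone Asf1b 1.16-fold (edgeR adjusted p = 5.8e-05 and 2.3e-04).

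**Figure D2:**
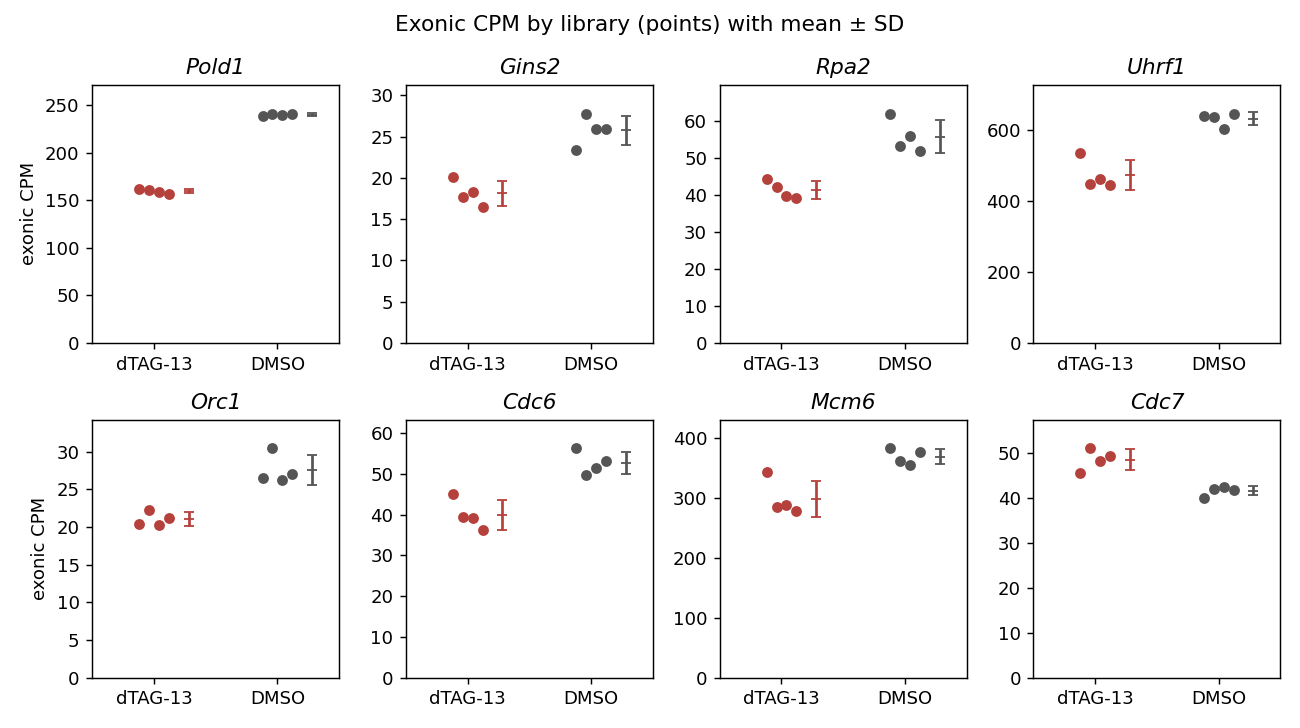
Exonic CPM (vertical axes, 1 panel per gene) of 8 replication genes in each library, dTAG-13 left and DMSO right, with points for libraries and bars for the mean ± SD of 4. In Pold1, Gins2, Rpa2, Uhrf1, Orc1, Cdc6 and Mcm6 every dTAG-13 point lies below every DMSO point, and in Cdc7 every one lies above.

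Within a group, some libraries were high or low across many of the genes. Across the 52, dTAG-13 replicate 1 was the highest treated library in 39 genes, and dTAG-13 replicate 4 the lowest in 27, against 30.0% and 30.2% over all genes tested. In the DMSO group, replicate 3 was the lowest library in 25 of the 52 and replicate 1 the highest in 22 (24.3% and 26.6% of all genes). The intronic share of reads was 20.4% in dTAG-13 replicate 1 and 27.3% in dTAG-13 replicate 4, the lowest and the highest of the 8 libraries. The part of this difference in the replication gene levels was not tested.

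**Figure D3:**
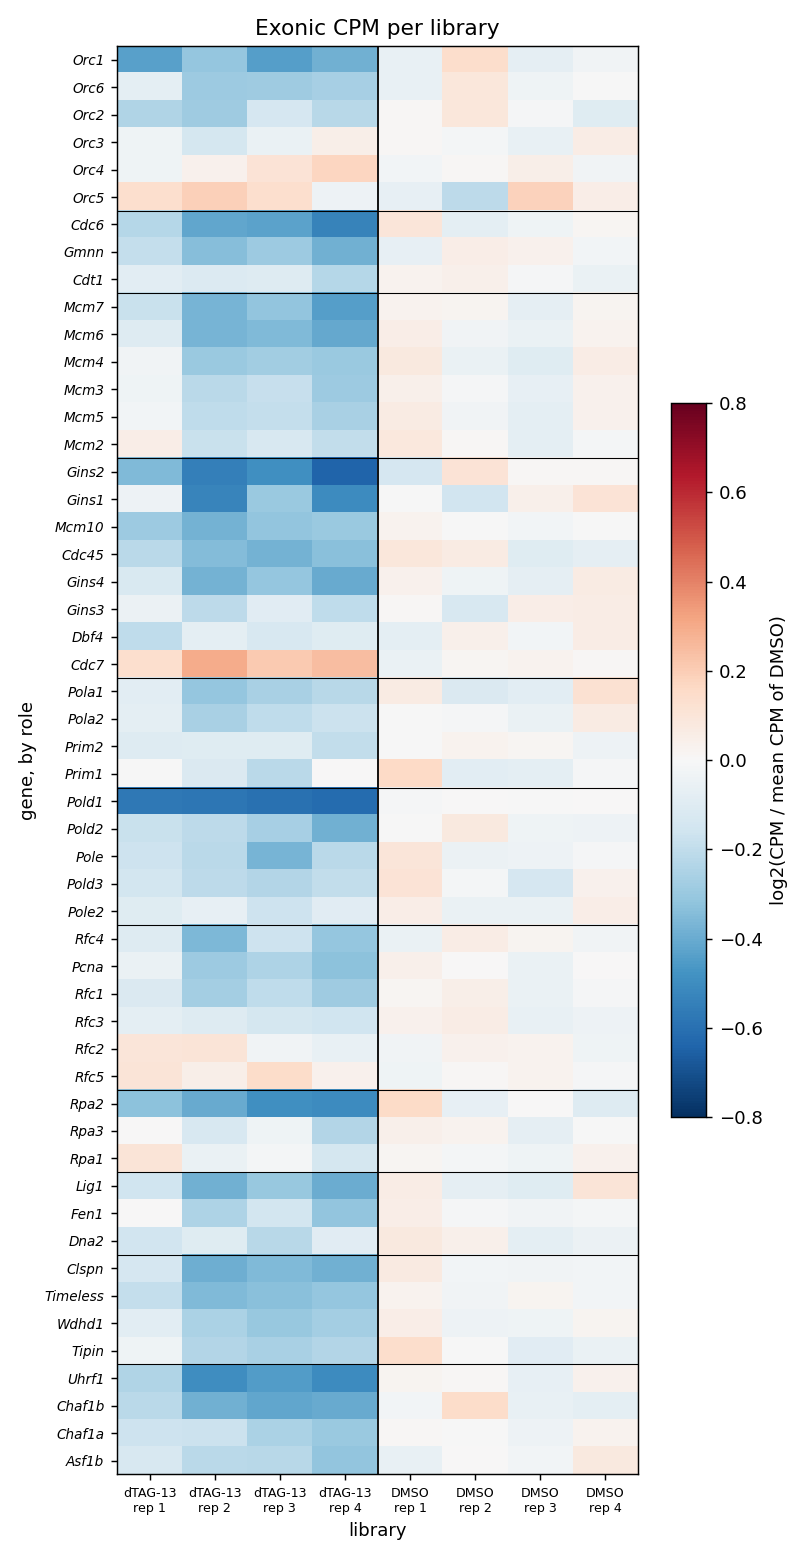
Exonic level of each of the 52 genes in each of the 8 libraries, as log2 of CPM over the mean of the 4 DMSO libraries (colour), dTAG-13 columns left and DMSO columns right. The column of dTAG-13 replicate 1 is paler than the other 3 treated columns in most rows, and the row of Cdc7 has the opposite colour to its neighbours.

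Intronic reads come mostly from RNA not yet spliced and gave a similar picture. Of the 52 genes 23 were lower by edgeR and 29 were not called, where 16.8% of 11229 genes tested were called, 8.50% lower and 8.26% higher. No gene of the 52 was called higher by edgeR or by DESeq2 (7.47% of all genes by DESeq2), and at an unadjusted p below 0.05 edgeR had 30 lower and 2, Cdc7 and Orc5, higher (14.5% and 13.3% of all genes). The median log2 fold change was -0.24, beside -0.003 over all genes tested, 45 of the 52 lay below 0, and all dTAG-13 libraries lay below all DMSO libraries in 21 and above them in none, against 10.0% and 9.51% of all genes. Summed intronic levels were 3942 ± 169 CPM in the dTAG-13 libraries and 4643 ± 124 CPM in the DMSO libraries (SD, n = 4 each), a difference of -15.1%, the same as in exonic reads. Without dTAG-13 replicate 1, 23 genes were called lower (7.37% of all 11470 genes then tested), 22 of them shared with the fit on all libraries, with Mcm3 gained and Tipin lost. Both read classes gave a fall for 22 genes, exonic reads alone for 17, intronic reads alone for Rpa3, and neither for 11, with Cdc7 higher in exonic and not called in intronic reads (log2 fold change 0.25 ± 0.09 (SE), edgeR adjusted p = 0.0628).

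Among intronic falls the smallest adjusted p was that of Uhrf1, with 170.2, 158, 160.4 and 153 intronic CPM in the dTAG-13 libraries, against 200.4, 221, 216 and 208 intronic CPM in the DMSO libraries. Its groups were separate (1.32-fold lower, log2 fold change -0.40 ± 0.06 (SE), edgeR adjusted p = 2.6e-05), as in its exons. Orc1 had 48.6, 54.7, 52.2 and 51.2 intronic CPM in the dTAG-13 libraries, against 70.7, 76.4, 72.3 and 70.7 intronic CPM in the DMSO libraries (1.40-fold lower, edgeR adjusted p = 2.8e-05). Pold1 had 52.7, 57.5, 53.1 and 54.6 intronic CPM in the dTAG-13 libraries, against 72.5, 79.5, 73.6 and 77.7 intronic CPM in the DMSO libraries (1.39-fold lower, edgeR adjusted p = 3.0e-05). In all 3 genes every treated library lay below every control library. Lig1 had 94.8, 86.6, 90.6 and 89.0 intronic CPM in the dTAG-13 libraries, against 117, 113, 109 and 117 intronic CPM in the DMSO libraries (edgeR adjusted p = 3.3e-04). Clspn had 71.1, 65.9, 66.0 and 62.8 intronic CPM in the dTAG-13 libraries, against 92.8, 84.9, 83.3 and 82.7 intronic CPM in the DMSO libraries (edgeR adjusted p = 4.4e-04). Pole had 80.7, 80.8, 80.5 and 87.7 intronic CPM in the dTAG-13 libraries, against 106, 109, 104 and 97.3 intronic CPM in the DMSO libraries (edgeR adjusted p = 6.2e-04). The treated libraries of these 3 genes were also all below their controls, with falls of 1.26-fold, 1.29-fold and 1.26-fold. The largest intronic folds were in genes with few intronic reads, Rpa3 (1.69-fold lower, edgeR adjusted p = 0.0197, at least 47 reads per library) and Gins2 (1.64-fold lower, adjusted p = 0.00496, at least 77 reads).

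Some calls were lost when a single library was left out, several of them for more than 1 choice of library. Of the 40 exonic calls 33 held when any 1 library was left out, and of the 23 intronic calls 13 did. With 1 library left out, the intronic edgeR call was lost for Cdc6 without DMSO replicate 1 (adjusted p = 0.0566), Mcm6 without DMSO replicate 1 (adjusted p = 0.064), Prim2 without DMSO replicate 4 (adjusted p = 0.0666) and Timeless without dTAG-13 replicate 3 (adjusted p = 0.0521). It was also lost for Pola1 without any 1 of DMSO replicate 1 and DMSO replicate 4 (0.0517 to 0.0526) and Wdhd1 without any 1 of dTAG-13 replicate 4, DMSO replicate 1 and DMSO replicate 4 (0.0556 to 0.0673). For Rpa3, leaving out any 1 of dTAG-13 replicate 2, dTAG-13 replicate 4, DMSO replicate 3 and DMSO replicate 4 (0.0519 to 0.0886) ended the call. The call was lost for Pcna without any 1 of dTAG-13 replicate 3, dTAG-13 replicate 4, DMSO replicate 1 and DMSO replicate 2 (0.0739 to 0.102) and for Rpa2 without any 1 of dTAG-13 replicate 2, dTAG-13 replicate 3, dTAG-13 replicate 4, DMSO replicate 1 and DMSO replicate 2 (0.054 to 0.107). It was lost for Tipin without any 1 of dTAG-13 replicate 1, dTAG-13 replicate 3, DMSO replicate 1, DMSO replicate 3 and DMSO replicate 4 (0.0588 to 0.0835). With DESeq2 in place of edgeR the intronic call on Pola1 was also lost (adjusted p = 0.104). With 1 library left out, intronic calls were gained for Mcm3 (without dTAG-13 replicate 1, adjusted p = 0.0316) and Gmnn (without dTAG-13 replicate 2, 0.0458), both lower, and for Orc5 (without DMSO replicate 3, 0.0242) and Cdc7 (without dTAG-13 replicate 4, 0.0472, or DMSO replicate 2, 0.0378), both higher.

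Whether exonic and intronic reads changed by different amounts was tested in 1 edgeR model over both read classes. None of the 52 genes was called, where 32 of 10026 genes tested (0.319%) were. At an unadjusted p below 0.05 the model had 7.78% of all genes and 2 of the 52, a share below that of all genes, Rpa3 (exonic minus intronic log2 fold change 0.66 ± 0.19 (SE), edgeR adjusted p = 0.205) and Pola1 (0.21 ± 0.09, adjusted p = 0.592). DESeq2 was not run for this difference. For Rpa3 the intronic reads were 5.49, 3.88, 4.39 and 3.98 intronic CPM in the dTAG-13 libraries, against 5.56, 7.74, 7.74 and 8.70 intronic CPM in the DMSO libraries, set on few reads. For Pola1, whose introns span 318.6 kb, they were 567, 425, 356 and 487 intronic CPM in the dTAG-13 libraries, against 699, 508, 575 and 669 intronic CPM in the DMSO libraries. The median difference over the 52 was 0.02. The SEs of the 52 ran from 0.06 (Chaf1a) to 0.19 (Rpa3), beside a typical SE over all genes of 0.12. Differences between the read classes that were small against these SEs were not detectable at this depth.

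How much of a gene's reads were intronic varied far more between genes than between treatments. The intronic share was lowest in Mcm7, with 1.81% in dTAG-13 and 1.91% in DMSO libraries, and highest in Prim2, whose introns span 210.0 kb, with 74.8% in dTAG-13 and 77.1% in DMSO libraries. Pola1 followed with 62.6% in dTAG-13 and 66.6% in DMSO libraries. These shares also carry the length of the introns and are not amounts of spliced and unspliced RNA.

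To compare levels between genes, exonic CPM were divided by the length of all annotated exons. On this scale the most abundant genes were Uhrf1, with 111 ± 9.91 CPM per kb in the dTAG-13 libraries and 149 ± 4.45 in the DMSO libraries, and Pcna, with 118 ± 10.2 CPM per kb in the dTAG-13 libraries and 138 ± 3.56 in the DMSO libraries (SD, n = 4 each). The order of these 2 differed between the groups. Of the MCM subunits 5 came next, led by Mcm3 with 74.5 ± 5.71 CPM per kb in the dTAG-13 libraries and 84.3 ± 2.93 in the DMSO libraries. Mcm2, the lowest of the 6, had 38.4 ± 3.15 CPM per kb in the dTAG-13 libraries and 41.4 ± 1.92 in the DMSO libraries, below Fen1 in both groups and below Pold1 and Asf1b in the DMSO libraries. Pold1 had 32.9 ± 0.475 CPM per kb in the dTAG-13 libraries and 49.5 ± 0.231 in the DMSO libraries. The loading factor Cdc6 had 7.64 ± 0.702 CPM per kb in the dTAG-13 libraries and 10.1 ± 0.531 in the DMSO libraries. The recognition complex was low, from Orc2 with 15.0 ± 0.656 CPM per kb in the dTAG-13 libraries and 17.5 ± 0.924 in the DMSO libraries to Orc5, the lowest of the 52, with 3.39 ± 0.228 CPM per kb in the dTAG-13 libraries and 3.14 ± 0.364 in the DMSO libraries. In DMSO libraries the highest of the 6 MCM subunits was 2.04 times the lowest, and the highest of the 6 recognition subunits 5.55 times the lowest. With the longest transcript as the length these ratios were 1.73 and 3.70, and the order changed. Pcna then lay above Uhrf1 in both groups, Mcm7 was the highest and Mcm4 the lowest MCM subunit, Orc3 was the highest recognition subunit, and Mcm2 had 76.4 CPM per kb in the dTAG-13 libraries and 82.3 in the DMSO libraries. Of the 52 gene IDs 37 had the same version in the annotation that gave the lengths, so levels per kb are approximate.

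**Figure D4:**
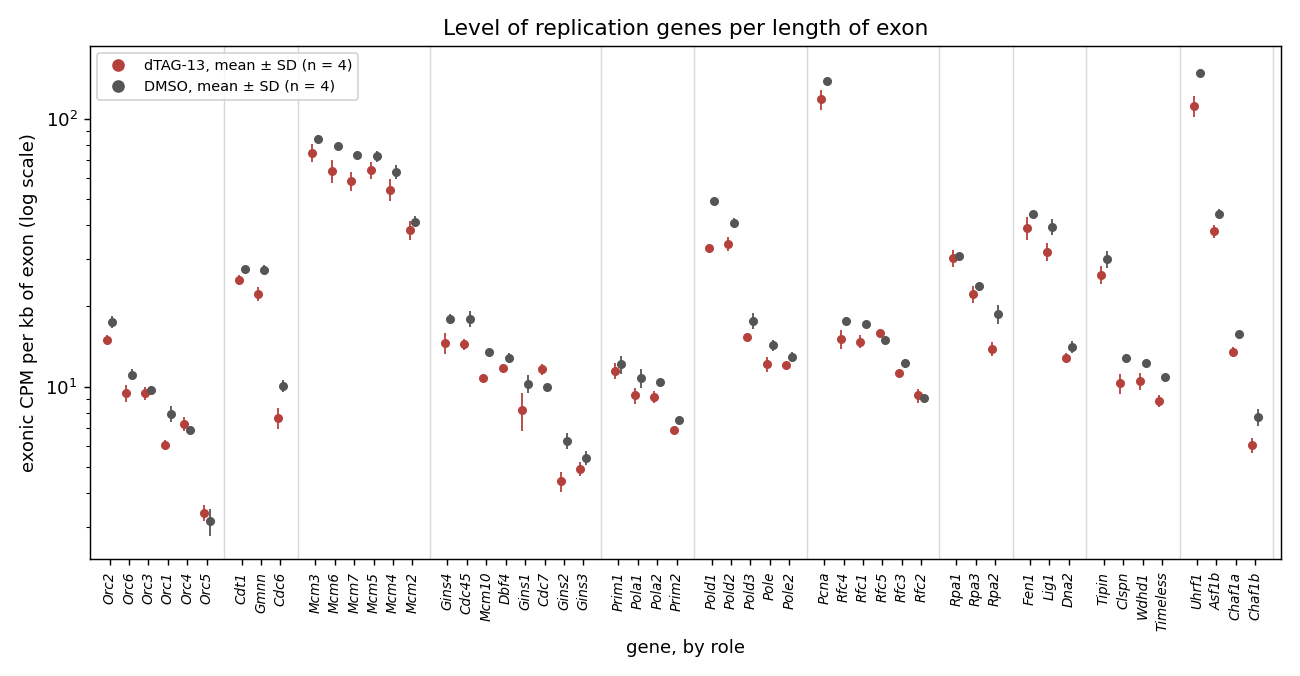
Exonic CPM per kb of exon (log axis) of the 52 genes by role, mean ± SD of 4 libraries, with dTAG-13 and DMSO as separate marks. Uhrf1 and Pcna lie highest and Orc5 lowest, and the MCM2-7 subunits lie between 38.4 and 84.3 CPM per kb over both groups.

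Genes with related roles outside the 52 were also lower in part. Of 48 other replication genes, all tested, 23 were lower and 1, Topbp1, was higher in exonic reads, against 14.0% and 14.3% of all genes tested. The median log2 fold change of the 48 was -0.13. Pold4, the small subunit of polymerase delta, had 17.2, 16.2, 19.8 and 17.3 exonic CPM in the dTAG-13 libraries, against 31.6, 33.5, 31.8 and 27.2 exonic CPM in the DMSO libraries. Its groups were far apart (1.76-fold lower, log2 fold change -0.81 ± 0.07 (SE), edgeR adjusted p = 7.2e-10), with a larger fall than any of the 52. Dtl, the substrate receptor of the ligase that destroys CDT1 in S phase, had 109, 97.7, 97.4 and 97.7 exonic CPM in the dTAG-13 libraries, against 142, 126, 134 and 132 exonic CPM in the DMSO libraries, and fell 1.33-fold (log2 fold change -0.41 ± 0.04 (SE), edgeR adjusted p = 2.9e-08). Ticrr, which helps CDC45 onto the helicase, had 106, 109, 108 and 107 exonic CPM in the dTAG-13 libraries, against 136, 123, 134 and 130.2 exonic CPM in the DMSO libraries, and fell 1.22-fold (edgeR adjusted p = 1.5e-06). Topbp1, its partner in origin firing, had 367, 339, 351 and 351 exonic CPM in the dTAG-13 libraries, against 291, 285, 285 and 295 exonic CPM in the DMSO libraries. All treated libraries were higher there, as in Cdc7 (1.22-fold, log2 fold change 0.28 ± 0.04 (SE), edgeR adjusted p = 3.5e-07). In intronic reads 12 of 45 tested genes of this list were lower, against 8.50% of all genes tested. With a single library left out, exonic calls were lost for Rif1, Pole3, Rnaseh2a, Dnmt1, Fbxo5, Skp2, Recql4 and Chtf18. With whole-gene counts the call on Ssrp1 was lost (edgeR adjusted p = 0.114). Intronic calls were lost with a single library left out for Atr, Dnmt1, Dscc1, Mcm9, Mms22l, Mtbp, Rnaseh2a and Skp2.

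Of 19 E2F, pocket protein and MYC genes, 18 were tested in exonic reads. Of these 11 were lower and 2, Mycn and Rb1, higher, against 14.0% and 14.3% of all genes tested. Myc had 79.3, 76.1, 83.8 and 78.0 exonic CPM in the dTAG-13 libraries, against 212, 211, 215 and 208 exonic CPM in the DMSO libraries (log2 fold change -1.42, edgeR adjusted p = 1.8e-20). E2f2, an activating E2F, had 142, 134, 129.6 and 131 exonic CPM in the dTAG-13 libraries, against 253, 242, 241 and 248 exonic CPM in the DMSO libraries (-0.87, adjusted p = 4.0e-16). Both had fully lower treated libraries. E2f8, a repressing E2F, had 164, 154, 152 and 155 exonic CPM in the dTAG-13 libraries, against 231, 232, 231 and 227 exonic CPM in the DMSO libraries (-0.56, edgeR adjusted p = 1.5e-12). Mycn had 241, 239, 239 and 226 exonic CPM in the dTAG-13 libraries, against 139, 137, 134 and 142 exonic CPM in the DMSO libraries (0.77, adjusted p = 2.5e-15), with fully higher treated libraries. E2f1 was lower by 1.22-fold (edgeR adjusted p = 9.5e-04). The exonic calls on E2f3 and Lin9 were each lost without dTAG-13 replicate 2 or 3 or DMSO replicate 2 or 4 (edgeR adjusted p 0.0515 to 0.119). The part of these regulators in the replication gene levels was not tested.

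Markers of mitosis and of cycling cells were read beside the 52. Of 17 such genes 5 were lower and 12 not called, with a median exonic log2 fold change of -0.08. Over all genes tested 28.3% were called in exonic reads, 14.0% lower and 14.3% higher. The summed level of the 17 was 2876 to 3141 CPM in the dTAG-13 libraries and 3048 to 3242 CPM in the DMSO libraries, which overlapped. Cdc20, the activator of the anaphase-promoting complex, had 116, 132, 137 and 125 exonic CPM in the dTAG-13 libraries, against 132, 158, 151 and 142 exonic CPM in the DMSO libraries (log2 fold change -0.19 ± 0.05 (SE), edgeR adjusted p = 0.00488). Ccna2, the cyclin of S and G2 phase, had 294, 298, 315 and 302 exonic CPM in the dTAG-13 libraries, against 315, 351, 330.0 and 334 exonic CPM in the DMSO libraries (log2 fold change -0.14 ± 0.04 (SE), edgeR adjusted p = 0.00636). In both genes the groups overlapped. Kif20a, a mitotic kinesin, had 104, 110.4, 108 and 104 exonic CPM in the dTAG-13 libraries, against 112, 127, 116 and 114 exonic CPM in the DMSO libraries (log2 fold change -0.14 ± 0.04 (SE), edgeR adjusted p = 0.0122). Mki67, a general marker of cycling cells, had 859.6, 861, 869.6 and 832 exonic CPM in the dTAG-13 libraries, against 919, 880.2, 933 and 949 exonic CPM in the DMSO libraries (log2 fold change -0.11 ± 0.03 (SE), edgeR adjusted p = 0.0159). Their treated libraries were all lower, by 1.10-fold and 1.08-fold. The call on Kif20a was lost without DMSO replicate 2 (adjusted p = 0.077), that on Mki67 without DMSO replicate 4 (0.0861), and that on Birc5, the fifth gene, without dTAG-13 replicate 1 or 4 or DMSO replicate 2, 3 or 4 (0.0656 to 0.191). With whole-gene counts none of the 17 was called by edgeR, where 1631 genes were called lower and 1721 higher over all genes. In intronic reads 0 of 17 were called by edgeR or DESeq2, where edgeR called 16.8% of all genes tested. At an unadjusted edgeR p below 0.05 there were 3 of the 17, against 14.5% of all genes lower and 13.3% higher. The part of cell cycle composition in the replication gene levels was not tested, and the difference between the 2 lists was not tested either.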

How the data were processed

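Total RNA was depleted of ribosomal RNA and made into stranded libraries, per the labels' protocols. The authors deposited raw counts per gene over exons and over whole genes, per the labels. Builds mm10 and GRCm38.p4 and the tools DESeq2, featureCounts (Subread 2.0.0), deepTools 3.3.2, SAMtools 1.10 and STAR 2.7.4a stand in the submitters' processing notes. The strand setting and the annotation's release are not given in the sources used here. The authors' deposited table holds log2 fold changes and p-values, per the file headers, and named the genes.

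Groups came from the titles and treatment labels. Intronic counts were whole-gene minus exonic counts. The 4 dTAG-13 and 4 DMSO libraries were compared with edgeR 4.0.16 in R 4.3.3 (quasi-likelihood F test, TMM factors, filterByExpr with a minimum count of 10 and a minimum total of 15), with Benjamini-Hochberg adjustment over all genes tested and a threshold of 0.05. The difference of exonic and intronic change was an interaction over 16 columns with the library as a block. The biological coefficient of variation was 0.058 for exonic and 0.095 for intronic counts. The genes Gm26917 and Gm42418, which overlap ribosomal RNA, took 25.7% to 29.3% of exonic reads. The steps were also run on simulated counts, drawn independently for each gene. That run holds no shift shared by many genes of a library, and its outcome is not used as support here. Alternatives were DESeq2 1.42.0, other scaling, no filter, a replicate block, whole-gene counts, a 1.2-fold null and each library left out.

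The 52 genes, the other lists and the tests were chosen with earlier results of these data known. Values per library are given for Ebf1, the 2 genes of smallest exonic p in each role, the largest called changes, the 6 smallest intronic p and the 4 smallest exonic p of each further list. Gene positions and exon lengths came from GENCODE on GRCm38, and promoter windows from RefSeq (GRCm38.p6). The replicate numbers were checked for pairing and were not used in the reported fits.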

Additional observations from a re-analysis of the deposited data

Results flagged for a closer look

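Within a group of 4 libraries, a library was marked where its gap to the nearest of the others, divided by the range of the group, was above Dixon's critical value for 4 libraries. Among 104 groups (52 genes in exonic reads, in dTAG-13 and in DMSO) 10 were marked, where chance marks about 1 in 20. In 6 of the 10 the library was dTAG-13 replicate 1, always on the high side. Mcm6 was 343 CPM there, against 278 to 289 CPM in the other dTAG-13 libraries. Mcm4 was 223 CPM (others 185 to 187), Clspn 83.5 CPM (others 70.1 to 71.9), Tipin 54.6 CPM (others 46.7 to 47.4), Chaf1b 31.1 CPM (others 27.1 to 27.6) and Orc6 25.9 CPM (others 22.4 to 22.8).

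dTAG-13 replicate 4 was low in Cdt1, at 73.5 CPM (others 80.0 to 81.3), and in Prim2, at 39.0 CPM (others 41.6 to 41.8). Among the DMSO libraries, replicate 1 was high in Clspn, at 96.4 CPM (others 90.2 to 90.5), and replicate 3 low in Mcm7, at 308 CPM (others 329 to 330).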

How the results depend on the processing

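In exonic reads 38 of the 52 genes were lower with DESeq2, 39 with RLE factors, 35 with library totals only, 34 with whole-gene counts, which lost Mcm3, Mcm5, Dbf4, Cdt1 and Fen1 (adjusted p 0.0629 to 0.156), and 35 to 40 with 1 library left out. The counts over all genes moved as well, from 1808 lower in the main exonic fit. They were 1773 with DESeq2, 1811 with RLE factors, 1403 with library totals only, 1631 with whole-gene counts and 1592 to 1853 with 1 library left out. Against a 1.2-fold change 5 were lower and 0 higher (all genes 486 lower and 601 higher), a smaller count that follows from the stricter null. In intronic reads 19 were lower with library totals only and 16 to 23 with 1 library left out, the fewest without DMSO replicate 1. Over all genes 954 were lower in the main intronic fit and 732 with library totals only. With 1 library left out there were 743 to 957, and 765 without DMSO replicate 1. In intronic reads 1 gene of the 52 was higher with library totals only and 1 with the replicate block, in place of 0, and 0 to 1 with 1 library left out. Over all genes 1174 were higher with library totals only and 955 with the replicate block, in place of 927, and 804 to 927 with 1 library left out. For the exonic minus intronic change no gene of the 52 was called under any alternative run, while over all genes 54 were lower and 57 higher with no filter, 8 higher with library totals only, and 8 to 18 lower and 3 to 15 higher with 1 library left out. The median difference of the 52 ranged from -0.0056 to 0.0284 with 1 library left out and was below 0 without dTAG-13 replicate 3 (-0.0048) or replicate 4 (-0.0056). The cause of these shifts was not tested. Lengths from the longest transcript gave ratios of highest to lowest level of 1.73 for MCM2-7, 3.7 for the recognition complex and 3.07 for GINS, against 2.04, 5.55 and 3.31. The replicate numbers did not pair the libraries, with correlations of deviations of -0.02 to 0.05 in exonic reads, and with the replicate block 40 genes of the 52 were lower in exonic and 23 in intronic reads. Over all genes that block gave 1869 lower in exonic and 982 in intronic reads. Of all alternatives, Prim2 lost its exonic call in 12 of 16.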
